A study of Mus musculus with 6 samples.

Results

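The genes described here are 10 markers of the meninges and of fibroblasts: Dcn, Lum, Ogn, Foxc1, Foxc2, Foxd1, Zic1, Slc6a13, Slc22a6 and Islr. They were chosen by name, with earlier results of these data known. Counts and medians over them beside those of all genes are therefore descriptions and carry no test. Each member was the row of the deposited table whose only annotated gene symbol was that name, and each of the 10 had 1 such row among 19938 genes with a single symbol. The samples were lumbar spinal cord dissected from mouse embryos of strain SV129 at stage E15.5, as 3 wild-type samples and 3 samples of genotype TNC -/-, each on 1 whole-transcript array. The labels call them biological replicates, and neither the deleted part of Tnc nor the litters are given in the sources used here. Levels are log2 values, so a difference of 1 is a doubling of signal, and precision is set by having 3 arrays a group.

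The meninges are the connective tissue membranes that wrap the brain and spinal cord, and their fibroblasts come from mesenchyme and neural crest. These cells secrete collagens and small leucine-rich proteoglycans, carry transporters that form part of the barrier between blood and cerebrospinal fluid, and depend on forkhead factors for their formation. The cord is dissected free of surrounding tissue, so a cord sample can hold a varying amount of attached meninges. In such bulk samples fewer meningeal cells and less RNA per meningeal cell cannot be told apart.

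Promoter sequence is printed for 4 members, 3 whose values followed a similar course over the arrays (Ogn, Slc6a13 and Islr) and 1 that did not (Slc22a6). Each window runs from 250 bases before to 50 bases after an annotated RefSeq start of GRCm38.p6, 5′ to 3′ on the gene's strand. They lie at chr13:49607765-49608064 on the plus strand for Ogn, chr6:121300038-121300337 on the plus strand for Slc6a13 (the first of 3 annotated starts), chr9:58158505-58158804 on the minus strand for Islr and chr19:8617746-8618045 on the plus strand for Slc22a6. Capitals mark matches on either strand to 5 motifs. The TATA box was searched as TATAAA. The core bound by forkhead factors was searched as TAAACA and the core bound by Zic factors as CAGCAGG. The GC box was searched as GGGCGG and the CCAAT box by its own letters.
Ogn: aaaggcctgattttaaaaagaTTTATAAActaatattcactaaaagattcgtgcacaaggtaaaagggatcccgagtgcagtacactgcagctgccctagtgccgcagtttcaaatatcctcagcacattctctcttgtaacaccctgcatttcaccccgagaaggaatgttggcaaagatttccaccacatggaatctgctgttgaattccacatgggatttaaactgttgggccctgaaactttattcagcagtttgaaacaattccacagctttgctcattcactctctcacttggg
Slc6a13: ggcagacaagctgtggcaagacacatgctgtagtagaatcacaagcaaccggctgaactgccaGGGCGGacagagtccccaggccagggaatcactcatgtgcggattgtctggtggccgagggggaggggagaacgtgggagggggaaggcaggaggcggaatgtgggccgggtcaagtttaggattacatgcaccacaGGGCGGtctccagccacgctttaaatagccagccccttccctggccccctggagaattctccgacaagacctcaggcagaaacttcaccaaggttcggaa
Islr: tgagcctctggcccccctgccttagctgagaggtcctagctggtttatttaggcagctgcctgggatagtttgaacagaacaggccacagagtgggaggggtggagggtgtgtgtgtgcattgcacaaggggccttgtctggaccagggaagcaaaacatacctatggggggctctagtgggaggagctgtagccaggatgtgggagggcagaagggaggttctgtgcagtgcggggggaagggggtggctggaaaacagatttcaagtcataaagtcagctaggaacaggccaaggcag
Slc22a6: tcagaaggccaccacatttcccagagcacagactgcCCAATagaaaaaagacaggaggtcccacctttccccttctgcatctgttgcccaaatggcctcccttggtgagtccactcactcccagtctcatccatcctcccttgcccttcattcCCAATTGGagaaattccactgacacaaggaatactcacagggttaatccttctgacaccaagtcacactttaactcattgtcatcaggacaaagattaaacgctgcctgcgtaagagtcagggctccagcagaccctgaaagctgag

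The Ogn window held TATAAA on both strands in overlapping letters, at bases 22 to 29, and was 42.3% G or C. These matches begin at -229 and -227 from the annotated start, at the far end of the window. The first Slc6a13 window held 2 GC boxes and was 59% G or C, the Islr window held none of the 5 motifs, and the Slc22a6 window held 3 CCAAT matches, 2 of them overlapping. No window of the 7 members with an entry held the forkhead core, which 13.4% of all 32851 windows held, or the Zic core, which 10.5% held. TATAAA was in 13.6%, the GC box in 35.7% and CCAAT in 37.4% of all windows. The windows of Foxc1 and Zic1 had 67.3% and 65.3% G or C and 32 and 31 CpG dinucleotides, against a median of 52.7% and 7 CpG over all windows. The entries lacked Dcn, Lum and Foxc2. A match is a run of letters and not a measured binding site.

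Some facts of the series bear on the members. Tnc, the targeted gene on chromosome 4, read 10.72, 10.22 and 10.02 in wild type and 9.64, 9.76 and 9.47 in knockout, so the groups did not overlap (exact two-sided permutation p = 0.1, the smallest that 3 arrays against 3 allow). Knockout replicates 1 and 3 carried signal of Y-linked genes (means of 8.198 and 7.862 over 3 genes), while the other 4 arrays read between 4.32 and 4.48, so the groups also differed in the sex of the embryos. Values with a sex term therefore compare knockout replicate 2 with the wild-type arrays, and the Tnc difference was then -0.56. The cord markers were present, with 0 of 13 under a background guide of 6.13, the level that 95% of 1194 receptor genes for odours and pheromones stayed under. Of these 13, 10 had a higher mean in knockout (9 under each of 3 rescalings of the arrays), with a median difference of 0.09 that was 0.03 without wild-type replicate 1. Olig2, a factor of motor neuron and oligodendrocyte progenitors, differed by 0.24 with groups that did not overlap (unadjusted p = 0.0341, adjusted p = 1). The highest of the 13, Fabp7 of radial glia and the neuronal gene Elavl3, differed by 0.00 and -0.03.

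No member passed in the knockout comparison, although 8 had a lower mean. Over the 10 members 8 were lower in knockout and 2 higher, beside 53.6% of all genes lower, and the median log2 difference was -0.18 against -0.01 over all genes. That median was -0.07 when wild-type replicate 2 was dropped and -0.30 when knockout replicate 2 was dropped. Under the sex term 6 of the 10 were lower, with a median of -0.08. Limma with Benjamini-Hochberg adjustment over all genes called 0 members at an adjusted p of 0.05, as it called 0 of 19938 genes (0%). At an unadjusted p under 0.05 it gave 1 member, Lum, beside 1.70% of all genes. Only for Lum did the 3 knockout values lie apart from the 3 wild-type values, beside 5.82% of genes (2.64% in the lower direction). The members also varied much between samples of the same group. Their median pooled SD was 0.24 against 0.12 over all genes, and the SD was larger in wild type than in knockout for 8 of the 10 (67.8% of all genes).

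**Figure D1:**
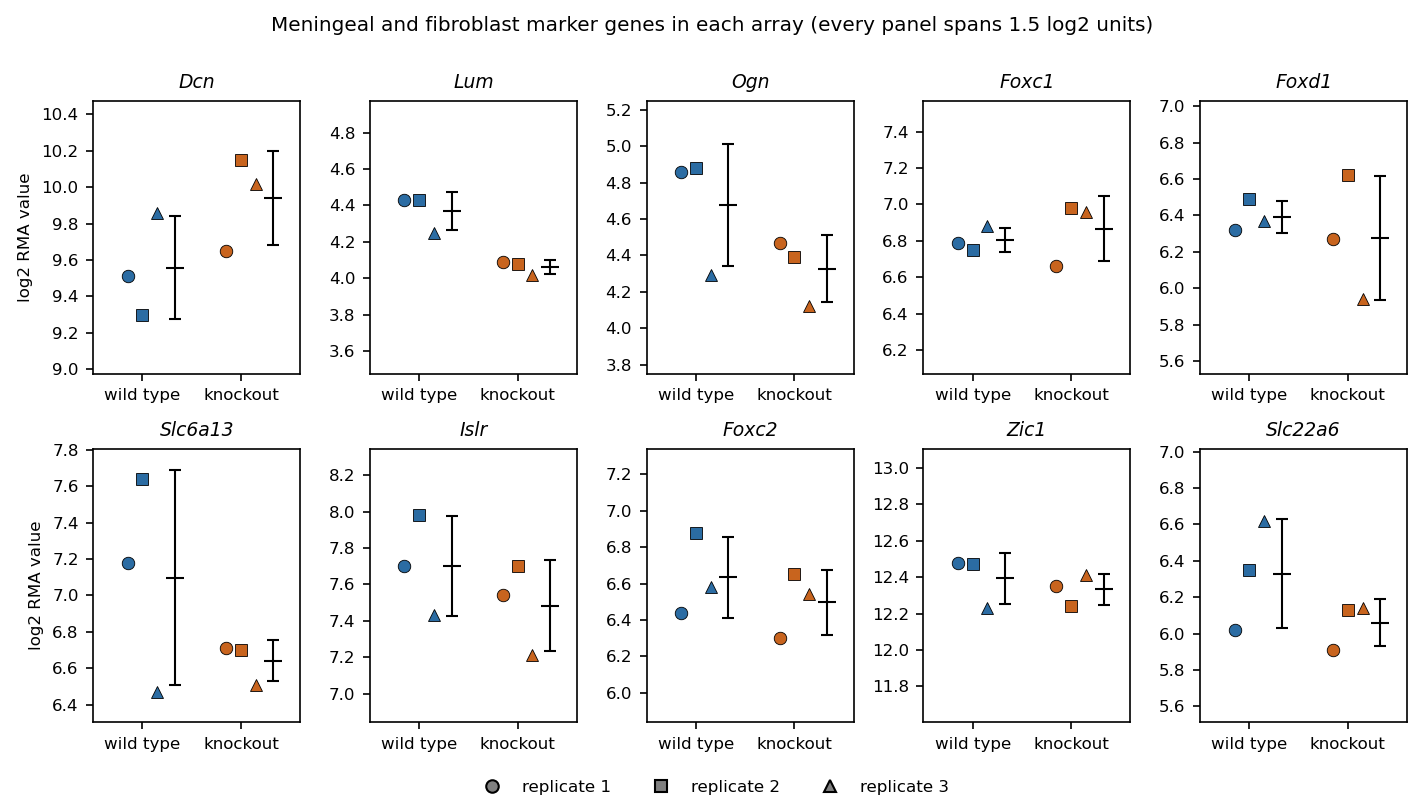
Log2 value of each of the 10 genes in each array, by genotype, with the replicate number as the marker shape and the group mean ± SD (n = 3) as the bar beside the points. Every panel spans the same range of log2 units; Lum alone has no overlap, and Slc6a13 spreads over 1.17 log2 units within wild type.

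Among the matrix genes, the 3 small leucine-rich proteoglycans did not go the same way. These are core proteins with leucine-rich repeats that bind collagen and set the width of its fibrils. Lum, which encodes lumican, read 4.43, 4.43 and 4.25 in wild type and 4.09, 4.08 and 4.02 in knockout. All knockout arrays lay below all wild-type arrays, by 0.30 log2 units at the means (SE 0.08, 95% confidence interval of the difference from -0.49 to -0.12, unadjusted p = 0.00511, adjusted p = 1). Without any single array the difference stayed between -0.36 and -0.27, and the sex term gave -0.29 with an unadjusted p of 0.0582, no longer under 0.05. Both group means lay under the background guide of 6.13, so this difference concerns a dim signal.

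Ogn, which encodes osteoglycin (mimecan), read 4.86, 4.88 and 4.29 in wild type and 4.47, 4.39 and 4.12 in knockout, also under the guide. Wild-type replicate 3 lay among the knockout arrays and the other wild-type arrays lay above all of them. The difference was -0.35 (SE 0.17, interval from -0.74 to 0.04, unadjusted p = 0.0730). It became -0.54 without wild-type replicate 3. Without any other single array it lay between -0.42 and -0.25, and the sex term gave -0.29.

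Dcn, which encodes decorin, went the other way and was well above the guide. It read 9.51, 9.30 and 9.86 in wild type and 9.65, 10.15 and 10.02 in knockout. Knockout replicates 2 and 3 were the highest arrays, and knockout replicate 1 lay below wild-type replicate 3, so the groups overlapped. The difference was 0.38 (SE 0.17, interval from -0.01 to 0.77, unadjusted p = 0.0529, adjusted p = 1). It ran from 0.26 without wild-type replicate 2 to 0.53 without wild-type replicate 3 or without knockout replicate 1, and was 0.59 with a sex term (unadjusted p = 0.0401). Dcn and Lum are adjacent protein-coding genes on chromosome 10.

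Decorin is also made by cells around blood vessels, and markers of those cells stood beside its values. Of 10 pericyte and mural markers 8 were higher in knockout, with a median difference of 0.10 (0.05 when wild-type replicate 1 was dropped) and list means from 8.15 to 8.38 in wild type and from 8.31 to 8.43 in knockout. None of the 10 lay under the guide. Their list mean was 8.15, 8.19 and 8.38 in wild type and 8.31, 8.43 and 8.32 in knockout. It was highest in knockout replicate 2, where Dcn was highest too. It was lowest in wild-type replicate 1, while Dcn was lowest in wild-type replicate 2. In wild-type replicate 3 it lay above knockout replicate 3, where Dcn was higher (10.02 against 9.86). Vtn, vitronectin, differed by 0.47 with no overlap (unadjusted p = 0.00303, adjusted p = 1) and Pdgfrb, the platelet-derived growth factor receptor of mural cells, by 0.09. Of 10 endothelial markers 9 were higher (median 0.16, and 0.29 under the sex term), with Cldn5 at 0.13 and Cdh5 at 0.26, and Egfl7 was lower (-0.08). Over all genes 53.6% were lower in knockout. For 4 of the endothelial markers, Pecam1, Cdh5, Esam and Tie1, the groups did not overlap (5.82% of all genes) and the unadjusted p was under 0.05 (1.70% of all genes), with an adjusted p of 1 for each. The part of vascular cells in the Dcn difference was not tested.

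Islr encodes a secreted or membrane-anchored protein with an immunoglobulin domain and leucine-rich repeats, found in mesenchymal stromal cells. It read 7.70, 7.98 and 7.43 in wild type and 7.54, 7.70 and 7.21 in knockout. The highest array was wild-type replicate 2 and the lowest was knockout replicate 3, with the rest mixed between the groups. Its difference of -0.22 (SE 0.17, interval from -0.60 to 0.16, unadjusted p = 0.220) shrank to -0.08 without wild-type replicate 2 and equally to -0.08 without knockout replicate 3. Dropping wild-type replicate 3 gave -0.36. The sex term gave -0.00193.

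Both transporters had a lower mean in knockout, and wild-type replicate 3 moved the 2 differences in opposite directions. Slc6a13 encodes GAT2, which takes up GABA and taurine and is used as a marker of the leptomeninges. It read 7.18, 7.64 and 6.47 in wild type and 6.71, 6.70 and 6.51 in knockout. The wild-type arrays spanned 1.17 log2 units, with replicate 3 the lowest of all 6, while the knockout arrays spanned 0.20. Only 0.301% of all genes had a larger pooled SD. The difference of -0.46 (SE 0.25, interval from -1.04 to 0.13, unadjusted p = 0.111) shrank to -0.18 when wild-type replicate 2 was dropped. Dropping wild-type replicate 3 gave -0.77 instead (unadjusted p = 0.000407), and the sex term gave -0.40.

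Slc22a6 encodes OAT1, an organic anion transporter best known from kidney tubules. It read 6.02, 6.35 and 6.62 in wild type and 5.91, 6.13 and 6.14 in knockout. Here wild-type replicate 3, the lowest array for Slc6a13, was the highest, and wild-type replicate 1 lay among the knockout arrays. The knockout mean of 6.06 was under the guide and the wild-type mean of 6.33 just above it. The difference was -0.27 (SE 0.15, interval from -0.61 to 0.07, unadjusted p = 0.101), -0.43 without wild-type replicate 1 (unadjusted p = 0.00747) and -0.13 without wild-type replicate 3.

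The 4 transcription factors showed the smaller differences, and all of their groups overlapped. Foxc1, a forkhead factor required for meningeal and skull development, read 6.79, 6.75 and 6.88 in wild type and 6.66, 6.98 and 6.96 in knockout. The 3 wild-type arrays lay within 0.13 of each other and inside the knockout range, and the difference was 0.06 (interval from -0.18 to 0.29). Leaving out knockout replicate 1 raised it to 0.16, while leaving out knockout replicate 2 or 3 brought it to at most 0.01. It was 0.03 with wild-type replicate 2 left out and 0.10 with wild-type replicate 3 left out.

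Foxc2, the close relative of Foxc1, read 6.44, 6.88 and 6.58 in wild type and 6.30, 6.65 and 6.54 in knockout. Its difference of -0.14 (interval from -0.45 to 0.17) fell to -0.02 without wild-type replicate 2, the highest array, and was 0.02 with a sex term. It was -0.04 with knockout replicate 1 left out, -0.22 with knockout replicate 2 left out and -0.23 with wild-type replicate 1 left out. Foxd1, a forkhead factor of stromal progenitors, read 6.32, 6.49 and 6.37 in wild type and 6.27, 6.62 and 5.94 in knockout. The knockout arrays held both the highest and the lowest value. The difference of -0.12 (interval from -0.48 to 0.25) was 0.05 without knockout replicate 3, -0.29 without knockout replicate 2, -0.07 without wild-type replicate 2 and 0.23 under the sex term.

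Zic1, a zinc-finger factor, marks meningeal cells but also dorsal progenitors and dorsal neurons of the cord itself. It read 12.48, 12.47 and 12.23 in wild type and 12.35, 12.24 and 12.41 in knockout. Wild-type replicates 1 and 2 were the highest and replicate 3 the lowest, so the knockout arrays lay inside the wild-type range. The difference was -0.06 (interval from -0.28 to 0.16), and 5 of the 6 arrays moved it by over 1.5 times. It was -0.02 with either wild-type replicate 1 or 2 left out and -0.01 with knockout replicate 2 left out, but -0.14 with wild-type replicate 3 left out and -0.10 with knockout replicate 3 left out. Of 13 measured dorsal progenitor factors, 12 were lower (median -0.10) and 1, Olig3, was higher by 0.40 with no overlap (unadjusted p = 0.0118, adjusted p = 1). With wild-type replicate 3 left out 8 of 13 were lower (median -0.04). The median was -0.05 with wild-type replicate 2, -0.06 with knockout replicate 2 and -0.18 with wild-type replicate 1 left out. Their list mean was between 8.12 and 8.41 in wild type and between 8.13 and 8.27 in knockout. The highest of them, Zic2 and Zic5, differed by -0.13 and -0.17, and their part in the Zic1 value was not tested.

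Leaving out arrays in turn shows which values depend on a single sample. A difference was counted as depending on an array if removal turned its sign or made it over 1.5 times larger or smaller. Only a difference that shrinks or turns sign rests on the array, while one that grows was held down by it. A counted move in either direction was found for 8 of the 10 members, and for 94.4% of all genes. Dcn and Lum were the exceptions. Only Foxd1 turned sign, as 59.9% of all genes did. Wild-type replicates 2 and 3 were each counted for 6 members and knockout replicates 2 and 3 for 4 each. Wild-type replicate 1 was counted for 3 and knockout replicate 1 for 2. Removing wild-type replicate 2 shrank every difference it was counted for. Removing wild-type replicate 3 shrank only that of Slc22a6 (-0.27 to -0.13) and enlarged those of Ogn, Foxc1, Slc6a13, Islr and Zic1. For Ogn no removal shrank the difference by over 1.5 times. Each other array shrank or turned some and enlarged others. Foxc1 and Zic1 differed so little (0.06 and -0.06) that small moves passed the rule.

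Wild-type replicate 3 had the widest effect on the calls. Without it 6 members (Dcn, Lum, Ogn, Slc6a13, Islr and Zic1) had groups that did not overlap, beside 23.5% of all genes in that comparison of 2 arrays with 3. An unadjusted p under 0.05 was then reached by 5 (the same without Zic1), beside 6.91% of all genes, and the smallest adjusted p of a member was 0.648. With wild-type replicate 1 left out, the groups of 2 members, Lum and Slc22a6, did not overlap (16.2% of genes), and both had an unadjusted p under 0.05 (3.33% of genes). With wild-type replicate 2 left out, Lum alone did both (11.6% and 1.28% of genes). With knockout replicate 1 left out, the groups of Dcn, Lum and Foxc1 did not overlap (12.9%), and Dcn and Lum had an unadjusted p under 0.05 (1.22%). With knockout replicate 2 left out, the groups of Lum and Foxd1 did not overlap (11.0%) and Lum had such a p (1.10%). With knockout replicate 3 left out, Lum alone did both (13.2% and 1.48%).

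**Figure D2:**
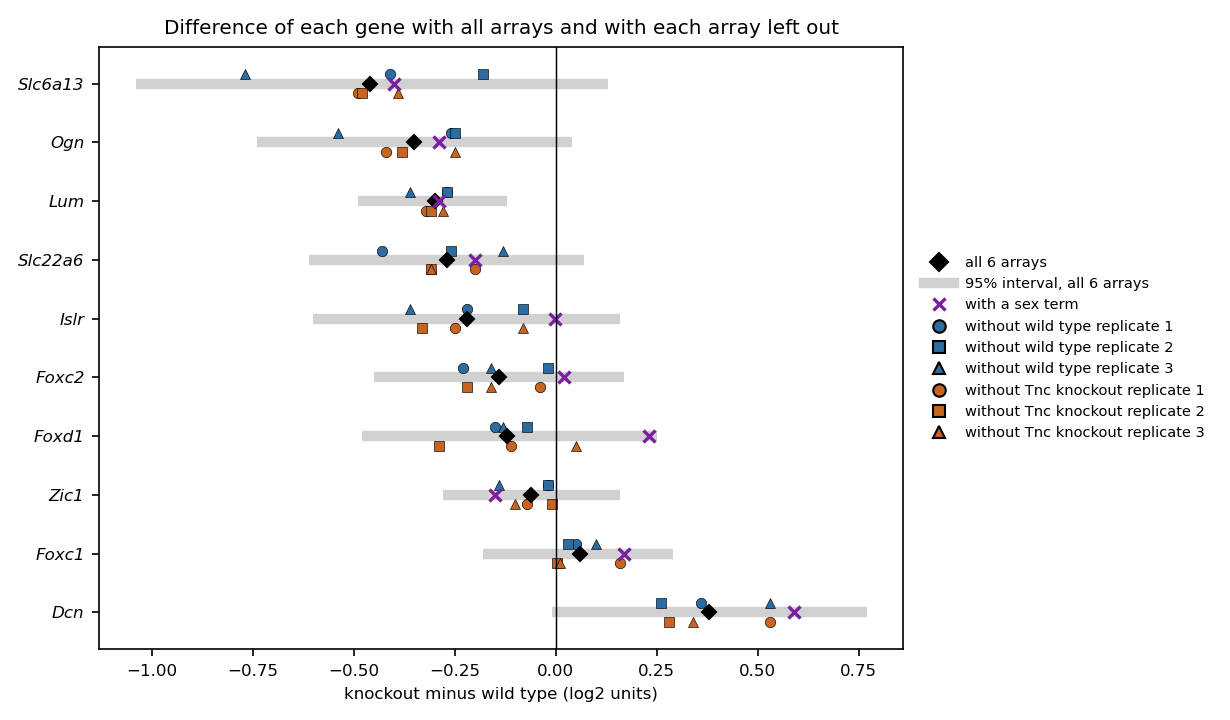
Knockout minus wild-type difference of each gene in log2 units: black diamonds for all 6 arrays, grey bars for the 95% confidence interval, coloured points for the fit with the named array left out and crosses for the fit with a sex term. The points of Slc6a13 run from -0.77 to -0.18, while those of Lum stay between -0.36 and -0.27.

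The course of the members over the 6 arrays split them into those that moved with each other and those that did not. After each gene was centred on its own mean, the average of the 10 was 0.05, 0.19 and -0.03 in wild-type replicates 1 to 3 and -0.13, 0.04 and -0.14 in the knockout replicates. Wild-type replicate 2 was the highest array for 4 members and knockout replicate 3 the lowest for 4. Over the 45 pairs of members Pearson's r across the 6 arrays had a median of 0.29 and ran from -0.86 to 0.92. It was over 0.5 for 14 pairs and under -0.5 for 6. Dcn was in most of the opposed pairs, at -0.86 with Ogn, -0.84 with Slc6a13 and -0.82 with Lum. These correlations describe 6 arrays that share their group difference and carry no test.

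**Figure D3:**
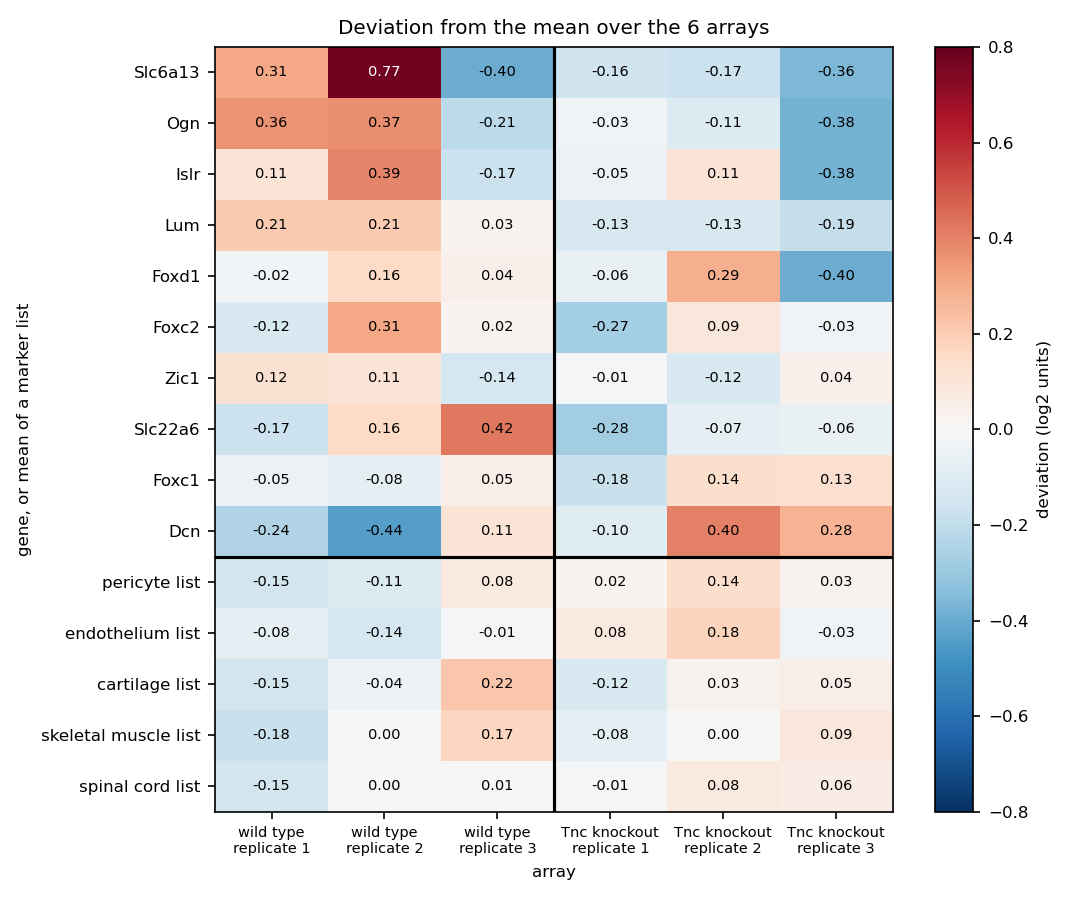
Deviation of each gene, and of the mean of 5 marker lists, from its average over the 6 arrays in log2 units, with arrays in columns and the vertical line between wild type and knockout. Slc6a13 stands at 0.77 in wild-type replicate 2 and -0.40 in wild-type replicate 3, and Dcn at -0.44 and 0.11 in the same arrays.

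Markers of other tissues varied over the wild-type arrays too. The list mean of 10 cartilage markers ran from 6.42 to 6.79 in wild type and from 6.45 to 6.61 in knockout, with 5 under the guide, and Col2a1 and Col9a2 differed by -0.05 and -0.02. For 10 skeletal muscle markers it ran from 6.44 to 6.80 and from 6.55 to 6.72, with 4 under the guide, and Acta1 and Actc1 differed by 0.15 and 0.01. Both lists were lowest in wild-type replicate 1 and highest in wild-type replicate 3, the array where Slc22a6 was highest and Slc6a13 lowest. The same order held for forebrain markers, a tissue outside a lumbar dissection, with centred means of -0.20 and 0.34 in those arrays, and for the other small leucine-rich proteoglycans (-0.08 and 0.08). For 8 ganglion and Schwann cell markers the list mean lay between 8.33 and 8.43 in wild type and between 8.34 and 8.47 in knockout (Pou4f1 -0.06, Prph 0.09). For 6 erythroid markers it lay between 7.57 and 7.81 and between 7.55 and 7.78 (Hbb-y -0.08, Hba-x -0.02). For 5 forebrain markers it lay between 6.10 and 6.64 and between 6.19 and 6.34, with 2 under the guide (Emx1 -0.08, Otx1 -0.18). The part of attached tissue in the members' differences was not tested.

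Relatives that lie beside the members on the chromosome had differences of their own, which were not tested against those of the members. Kera and Epyc, which follow Dcn and Lum on chromosome 10, differed by 0.02 and -0.08. Omd, Aspn and Ecm2, which line up beside Ogn on chromosome 13, differed by -0.10, -0.10 and 0.20. Slc6a12, adjacent to Slc6a13 on chromosome 6, differed by -0.11, with knockout arrays at 6.38, 6.38 and 6.41 all below wild-type arrays at 6.49, 6.43 and 6.58. Slc22a8, the OAT3 gene adjacent to Slc22a6 on chromosome 19, was higher in knockout by 0.24 (interval from -0.02 to 0.50). Zic4, adjacent to Zic1 on chromosome 9, differed by -0.08, and the neuronal gene Islr2, adjacent to Islr, by -0.03. Foxq1 and Foxf2 near Foxc1 differed by 0.07 and 0.15, and Foxf1 and Foxl1 near Foxc2 by -0.07 and -0.04. Of these 13 genes 5 had a higher and 8 a lower mean in knockout. All but Islr2 are counted again in the lists of proteoglycans, transcription factors and solute carriers below, and Epyc is also a cartilage marker. The lists are thus not separate lines of evidence. Their median was -0.04, and for 1 the groups did not overlap, beside 5.82% of all genes.

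Related lists of matrix, meningeal, transcription factor and transporter genes gave a mixed picture, and none of their genes passed over all genes. The lists are not limited to meningeal cells, and cord cells may express some of these genes. Zic2, for one, is also a dorsal cord factor (wild-type mean 11.08). The medians of these lists therefore do not measure meningeal cells alone. Of 22 fibroblast collagens and matrix proteins 20 were lower in knockout, with a median of -0.08, but dropping wild-type replicate 3 left 13 of 22 lower (median -0.03), as did adding a sex term. Col1a2, a chain of collagen I, differed by -0.17, Col6a3 by -0.15 and the cross-linking enzyme gene Loxl1 by -0.10, at unadjusted p from 0.130 to 0.181. Without wild-type replicate 3 the differences of Col1a2 and Col6a3 were -0.10 and -0.07. The groups of Col6a3 and Loxl1 did not overlap, beside 5.82% of all genes.

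Of 13 other small leucine-rich proteoglycans 7 were higher and 6 lower (median 0.01), with Ecm2 at 0.20, Bgn, biglycan, at 0.12 and Optc, opticin, at -0.09. Dropping wild-type replicate 3 gave a median of 0.08, and dropping wild-type replicate 1 gave -0.05. Of 21 other meningeal genes 9 were higher and 12 lower (median -0.01). Emp1, an epithelial membrane protein gene, read 10.21, 9.70 and 9.74 in wild type and 10.15, 10.57 and 10.39 in knockout, a difference of 0.49 (unadjusted p = 0.0153). The matricellular gene Smoc2 differed by 0.17 and the chemokine gene Cxcl12 by 0.19, which became 0.09 without knockout replicate 2.

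Of 20 other mesenchymal transcription factors 8 were higher and 12 lower (median -0.05, and 0.01 without wild-type replicate 3). Zic2, Zic4 and Zic5 are counted here and among the dorsal progenitor factors, and Pax7 is both a dorsal factor and a cord marker. Twist1, a mesenchymal basic helix-loop-helix factor, averaged 7.06 ± 0.08 over the wild-type arrays and 6.83 ± 0.15 over the knockout arrays (SD, n = 3 per group). The difference was -0.23 (unadjusted p = 0.0401). Tbx18 differed by -0.14 with no overlap. Of 14 other solute carriers 6 were higher and 8 lower (median -0.02), and the smallest p was that of Slco1a5, at -0.20 (unadjusted p = 0.0348) with both means under the guide. At an unadjusted p under 0.05 these 5 lists held 4 of their 90 genes (4.44%, beside 1.70% of all genes), Emp1, Smoc2, Twist1 and Slco1a5, and the adjusted p of each was 1.

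**Figure D4:**
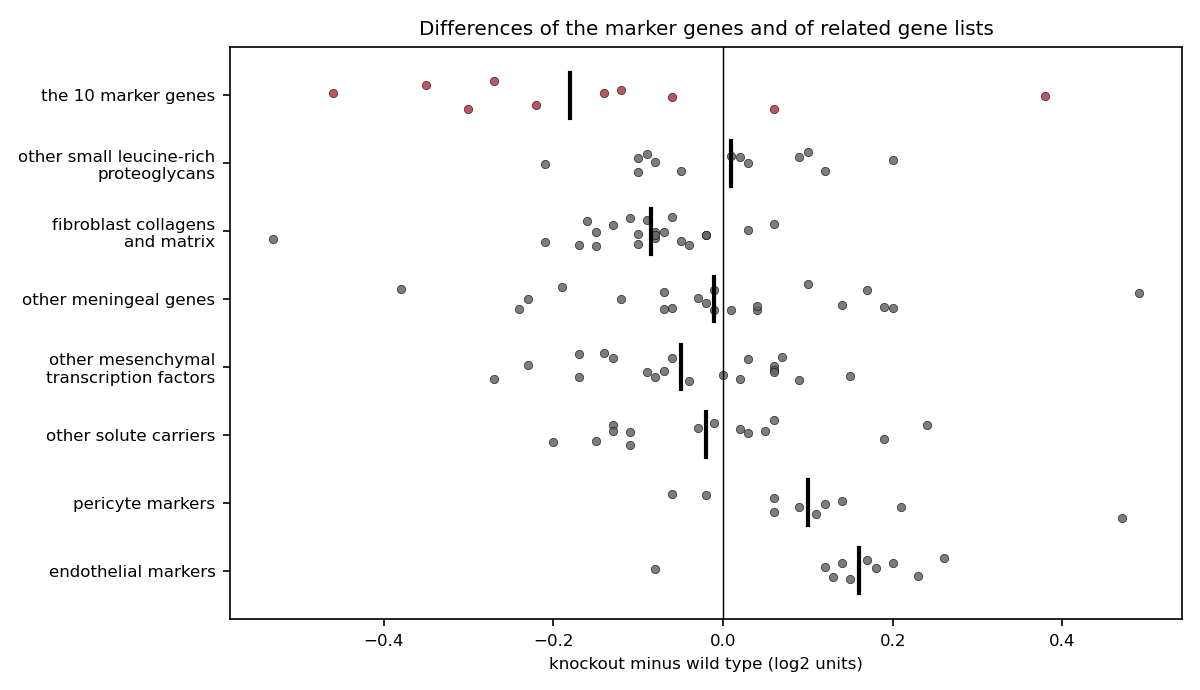
Knockout minus wild-type difference in log2 units of every measured gene (points, with vertical scatter only for legibility) in the 10 marker genes and in 7 related lists, with the median of each list as a bar. The medians run from -0.18 for the 10 marker genes to 0.16 for endothelial markers, and Dcn lies apart from the other marker genes at 0.38.

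Among genes other than the 10 members, those whose 6 values followed the averaged course of the members most closely were Mir412, Tmc4, Wasl, Lhx1 and Cdc14a, with Pearson's r from 0.963 to 0.984 over 6 arrays. They were taken from genes with a mean above the guide. Lhx1 is also one of the 13 cord markers. Their own differences were -0.21, -0.14, -0.05, -0.06 and -0.14, where the median absolute difference of all genes was 0.05. The averaged course is itself lower in knockout, so the sign of these differences follows from how the genes were picked. Lhx1, a transcription factor of spinal interneurons, read 11.20, 11.28 and 11.17 in wild type and 11.11, 11.24 and 11.11 in knockout. The likeness rests on wild-type replicate 2 being high and knockout replicates 1 and 3 low, and no test applies to it.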

How the data were processed

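Total RNA of 6 lumbar cord samples was biotin-labelled and hybridised to whole-transcript arrays, per the labels' protocols. The table deposited by the authors holds log2 signal. The submitters' processing notes name RMA, and the sources used here give neither its version nor the genome build or scan batch. RMA equalises signal distributions between arrays, so a global shift cannot be seen, and small changes are compressed. The table held 35557 transcript clusters, 21789 with exactly 1 gene symbol in the platform annotation, 1621 with several and 12147 without a listed symbol. Symbols were updated by entrez identifier against RefSeq GRCm38.p6 (19856 of 19938 genes matched). For 999 genes with several clusters, the highest mean stood for the gene.

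Genes were compared with limma 3.58.1 in R 4.3.3 (lmFit and eBayes, group as the only term, all 6 arrays), with two-sided p-values adjusted by Benjamini-Hochberg over all genes at 0.05, and no filter. The fit was first tested on simulated data with independent noise. It recovered 52% of 100 planted changes of 0.5 log2 units and 88% of 100 planted changes of 1.0, and called 6 genes not planted. The noise was drawn for each gene alone, without variation shared between genes such as that of sex. These percentages therefore do not give the recovery in the real arrays, where the fit called 0 genes and missed Tnc at -0.69. Every member difference was smaller than 0.5, so a lack of calls does not show a lack of change. The members and lists were chosen with earlier results of these data known. Genes named were the members, Tnc, the 3 of smallest p per related list, the relatives next to the members, the 2 highest of each marker list and the 5 most alike in course, while Olig2, Olig3, Pecam1, Esam and Tie1 were named after their values were seen. Replicates may come from shared litters. The p-values set each group difference against the spread between these samples, which eBayes moderates with that of all genes. Alternatives were each array left out, a replicate block, a sex term, 2 filters on level, a trend in eBayes (also in its robust form), array weights, quantile normalization, median centring, cyclic loess, the mean of a gene's clusters and all clusters.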

Additional observations from a re-analysis of the deposited data

How the results depend on the processing

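Of the alternatives, quantile normalization, median centring and cyclic loess turned the sign of 0 members and moved none by more than 0.04 log2 units. Leaving out single arrays moved the median of the members between -0.30 and -0.07, the members lower in knockout between 7 and 8, those with groups that do not overlap between 1 and 6, and the genes past an adjusted p of 0.05 between 0 and 4. The 4 were Xist, Eif2s3y, Kdm5d and Uty, without knockout replicate 2. Foxd1 ran from -0.29 to 0.05 over those fits. With a sex term Foxd1 was 0.23 and Foxc2 0.02, 6 members were lower and the median was -0.08. When the dimmest 25% of genes were dropped, 8 members were left, Lum and Ogn dropped out and 0 had groups that do not overlap. Without genes under the median level only Dcn and Zic1 were left, so 1 was lower, 0 were apart and the median was 0.16. The differences of Dcn and Zic1 stayed at 0.38 and -0.06, and the median turned because the dimmer members dropped out. With every cluster of the table tested, 9 clusters without a single symbol passed and no member did. Array weights, whose estimation stopped before convergence, gave wild-type replicate 2 a weight of 6.39 and wild-type replicate 3 one of 0.271, and brought 8 members to an unadjusted p under 0.05 beside 4181 genes, with a smallest adjusted p of 0.0713 among members.

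The replicate numbers were not shown to pair the samples. Deviations from the group means of same-numbered samples correlated at 0.345, -0.0746 and 0.449, and not every sample correlated best with its own number. With the replicate block limma called 0 genes past an adjusted p of 0.05, the median of the members was -0.18, and 636 genes instead of 339 had an unadjusted p under 0.05, among them 6 members instead of 1 (Dcn, Lum, Ogn, Slc6a13, Islr and Slc22a6). Lum and Ogn lie under the guide to background, so their signal limits what their values can show.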
